A study of Mus musculus with 15 samples.

Results

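Plvap, caveolin and cavin genes of the caveolar coat, EHD ATPase genes of the caveolar neck and Mfsd2a belong to the vesicle route by which endothelial cells carry plasma proteins from blood to tissue. They were chosen by gene symbol, as all probe sets (groups of short array probes that together measure a transcript) that name Plvap, Cav1, Cav2, Cavin1, Cavin2, Cavin3, Ehd2, Ehd4 or Mfsd2a. This gave 9 of 18193 genes and 18 of 45101 probe sets by symbol alone, and the genes were proposed with earlier results of these data known. The arrays came from adult mouse retina, from which endothelial cells had been caught with beads carrying an antibody to PECAM, a surface protein of endothelium. There were 3 arrays of Fz4-/- mice, which lack the receptor Frizzled4, 3 of Lrp5-/- mice, which lack its coreceptor, 3 of Norrin KO mice (titled Norrin-), which lack the secreted ligand, and 6 of wild type mice. Every array held a pool of 5 to 10 adults on a C57Bl6/129 mixed background, labelled mixed gender in all groups. The labels name no age beyond adult and no Cre line or promoter that would limit a deletion to a cell type.

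Caveolae are flask-shaped pits of the plasma membrane that can pinch off and carry cargo across the endothelium. Caveolins and cavins build their coat, EHD ATPases ring the neck, and PLVAP forms the thin diaphragm over the openings of caveolae and fenestrae in vessels without a barrier. Mature endothelium of brain and retina keeps this route low: Plvap is silenced there, and MFSD2A, which carries lysophosphatidylcholine with omega-3 fatty acids into the tissue, keeps caveolar vesicles few. Norrin binds Frizzled4 with the coreceptors Lrp5 or Lrp6 and, through β-catenin and TCF/LEF factors, drives the barrier state of retinal vessels.

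The loss of the targeted gene was visible for both receptor genes. Fzd4 averaged 4.22 ± 0.30 (SD, n = 3) log2 signal in Fz4-/- arrays and 12.09 ± 0.20 (SD, n = 6) in wild type arrays, and Lrp5 averaged 4.91 ± 0.45 in Lrp5-/- arrays and 7.69 ± 0.27 in wild type arrays. Ndp, which encodes Norrin, was near the floor in Norrin KO arrays (4.13) and in wild type arrays (4.44), so it checks no label. Lrp5-/- 1, wild type 4 and Lrp5-/- 3 were the highest on the second principal component, at 77.4, 34.0 and 29.2. They are called below the 3 arrays that stood apart. Wild type 5 lay about as far out as Lrp5-/- 3 on the other side, at −29.5, and was not counted among them. The signal gap between 3′ and 5′ actin control probe sets, a sign of RNA quality, was 1.05 to 2.92 on Norrin KO arrays and 0.56 to 1.04 on the others. Xist was at 4.12 to 4.98 and Eif2s3y at 9.77 to 10.32 on all Norrin KO arrays, which goes against the mixed gender label there. Xist was at 11.42 to 11.88 on all Fz4-/- arrays, with Eif2s3y at 3.25 to 9.63. In Lrp5-/- arrays Xist ran from 4.76 to 12.21 and Eif2s3y from 3.21 to 10.48. In wild type arrays Xist ran from 4.88 to 12.27 and Eif2s3y from 2.69 to 10.29. The low ends go against the mixed gender label for part of the arrays of these groups too.

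Endothelial markers were bright in every group. The mean of 11 of them was 11.80 to 11.88 in Fz4-/- arrays, 11.65 to 11.84 in Lrp5-/- arrays, 11.62 to 11.88 in Norrin KO arrays and 11.69 to 11.87 in wild type arrays. That mean hides shifts in both directions. Of the 11 markers, 3 were higher and 4 lower by limma's moderated test, adjusted over all genes, over the mean of the mutants, where 14% of all genes were higher and 9.91% lower. Emcn was higher by 0.82, Kdr by 0.80 and Cdh5 by 0.29, while Cldn5 was lower by −1.38, Tek by −0.65, Vwf by −0.32 and Esam by −0.29. Pecam1, the target of the beads, differed by 0.07 (adjusted p = 0.743). Markers of other cells were present too, and some were nearly as bright. As a mean per marker in wild type arrays, those of pericytes and smooth muscle were at 10.86 to 11.21. Those of Muller glia and astrocytes were at 10.3 to 11.26, and those of macrophages and microglia at 8.57 to 9.84. Fibroblast markers were at 8.49 to 8.89, red blood cell markers at 5.98 to 6.66 and rod and cone markers at 5.36 to 5.88. The sums below are over lists of unlike length, so they compare groups and not cell types. The log2 signals of 11 pericyte and smooth muscle markers summed to 124.5 to 125.8 in Fz4-/- arrays, 121.7 to 127.0 in Lrp5-/- arrays, 122.7 to 125.1 in Norrin KO arrays and 119.5 to 123.3 in wild type arrays, with 3 of 11 higher and 1 lower over the mean of the mutants. The 11 macrophage and microglia markers summed to 109.9 to 115.9 in Fz4-/- arrays, 105.5 to 111.9 in Lrp5-/- arrays, 107.4 to 113.9 in Norrin KO arrays and 94.3 to 108.2 in wild type arrays. Of these, 5 of 11 were higher and none passed the test as lower. Mrc1, a mannose receptor of tissue macrophages, was the most changed, at 9.74 over the mean of the mutants and 6.07 in wild type arrays, a 12.8-fold ratio (adjusted p = 4.16e-05), with 20.4-fold in Norrin KO. Adgre1 was higher by 1.62, Aif1 by 0.93, C1qa by 0.68 and C1qb by 0.60. The 6 fibroblast markers summed to 47.0 to 49.2 in Fz4-/- arrays, 47.3 to 48.7 in Lrp5-/- arrays, 51.4 to 55.0 in Norrin KO arrays and 51.0 to 53.3 in wild type arrays, with 1 of 6 higher and 2 lower over the mean of the mutants. The 4 red blood cell markers measured summed to 18.6 to 20.3 in Fz4-/- arrays, 21.7 to 22.8 in Lrp5-/- arrays, 22.2 to 23.9 in Norrin KO arrays and 23.9 to 26.6 in wild type arrays. Of these 2 were lower, among them Alas2 by −1.87 (adjusted p = 1.67e-05). The 8 rod and cone markers measured summed to 45.1 to 53.1 in Fz4-/- arrays, 49.2 to 58.1 in Lrp5-/- arrays, 42.2 to 51.0 in Norrin KO arrays and 42.8 to 47.1 in wild type arrays. Only Gnat1 passed among them, higher by 1.44 (adjusted p = 0.000197). The 7 markers of Muller glia and astrocytes summed to 71.7 to 78.9 in Fz4-/- arrays, 75.7 to 78.8 in Lrp5-/- arrays, 72.7 to 74.7 in Norrin KO arrays and 72.1 to 78.8 in wild type arrays, with Glul (−0.31) and Rlbp1 (−0.81) lower. The markers named here other than the first of each list were chosen after their values were seen. A log2 signal has no zero, so no marker is listed at 0. Caveolae are found in pericytes, smooth muscle cells and fibroblasts as well, and the part of these and the other cells in the differences below was not tested. In such bulk samples fewer cells of a type and less RNA per cell cannot be told apart.

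Plvap rose and Mfsd2a fell in all mutants by far more than any caveolar coat gene moved. In Fz4-/- arrays 5 of the 9 genes were higher than in wild type and 2 were lower, where 16.7% of all genes passed the same test (10.7% higher and 6.08% lower). In Lrp5-/- arrays 3 were higher and 2 lower, where 12.9% of all genes passed (5.63% higher and 7.27% lower). In Norrin KO arrays 4 were higher and 4 lower, where 25.8% of all genes passed (16.7% higher and 9.13% lower). Over the mean of the mutants 4 were higher and 4 lower, against 23.9% of all genes (14% higher and 9.91% lower). The test was limma's moderated test on 4 group means, with Benjamini-Hochberg adjustment over all 18193 genes, with a threshold of 0.05. All comparisons with wild type share the same 6 wild type arrays, so the mutants' values are side by side and not independent of each other. Each p-value measures the spread between pools, not between mice.

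Arrays did not overlap between mutant and wild type for 8 of the 9 genes in Fz4-/-, 7 in Lrp5-/- and 8 in Norrin KO, where 23.2%, 16.7% and 25.3% of all genes did not overlap. All 9 mutant arrays lay on one side of all 6 wild type arrays for Plvap, Mfsd2a, Cavin2, Cavin3, Ehd2 and Ehd4, which is 6 of 9 where 8.29% of all genes did so.

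Plvap, the diaphragm protein, was the gene with the largest difference among the 9. Its signal was 12.51, 12.49 and 12.59 in Fz4-/- arrays, 12.28, 12.31 and 12.17 in Lrp5-/- arrays, and 12.65, 12.42 and 12.59 in Norrin KO arrays, against a lowest of 4.69, a median of 5.34 and a highest of 6.01 in wild type arrays. Every mutant array was bright and tightly grouped, with SDs of 0.05, 0.08 and 0.12, while the wild type arrays were dim and spread more widely (SD 0.53, n = 6). The wild type mean of 5.34 lay below the median signal of every array (5.88 to 6.04), in the range where a probe set may report little but background. The log2 differences were 7.19 ± 0.24 in Fz4-/- (SE, adjusted p = 7.61e-11), 6.91 ± 0.24 in Lrp5-/- (adjusted p = 1.82e-10) and 7.21 ± 0.24 in Norrin KO (adjusted p = 8.56e-11). Over the mean of the mutants the difference was 7.10 ± 0.18, which is a 138-fold ratio of the deposited signals (adjusted p = 1.72e-12). No pair of mutants differed past the test: Fz4-/- minus Lrp5-/- was 0.28 (adjusted p = 0.75), Fz4-/- minus Norrin KO was −0.03 (adjusted p = 0.974) and Lrp5-/- minus Norrin KO was −0.30 (adjusted p = 0.496). All Lrp5-/- arrays still lay below every Fz4-/- and every Norrin KO array. In these 2 comparisons 16.5% and 30.8% of all genes did not overlap. The fit shares its spread over all groups, the more widely spread wild type arrays included.

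Mfsd2a, the lipid carrier that keeps transcytosis low, fell. Its signal was 8.26, 8.18 and 7.18 in Fz4-/- arrays, 8.23, 8.26 and 7.47 in Lrp5-/- arrays, and 7.96, 7.67 and 8.11 in Norrin KO arrays, against 11.87 (lowest), 11.98 (median) and 12.17 (highest) in wild type arrays. The mutant arrays spread over 7.18 to 8.26, with Fz4-/- 3 and Lrp5-/- 3 the lowest, and none came near the wild type range. The log2 differences were −4.12 ± 0.23 in Fz4-/- (SE, adjusted p = 1.48e-08), −4.0 ± 0.23 in Lrp5-/- (adjusted p = 3.27e-08) and −4.08 ± 0.23 in Norrin KO (adjusted p = 1.65e-08). Over the mean of the mutants it fell by 4.07 ± 0.17 on the log2 scale, a 16.7-fold ratio (adjusted p = 3.71e-10). The mutants differed from each other by −0.12, −0.04 and 0.08, with adjusted p of 0.897, 0.962 and 0.873.

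**Figure D1:**
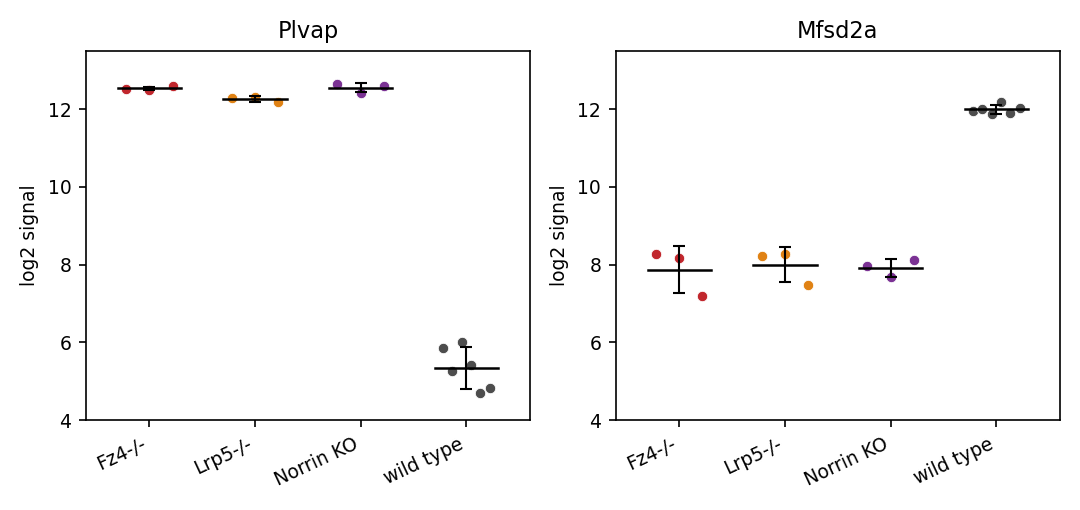
Log2 signal of Plvap (left) and Mfsd2a (right) on each of the 15 arrays, by group, with the group mean and SD as bars. Plvap lies between 12.17 and 12.65 on the mutant arrays and between 4.69 and 6.01 on the wild type arrays, and Mfsd2a lies between 7.18 and 8.26 on the mutant arrays and between 11.87 and 12.17 on the wild type arrays.

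Promoter windows are shown for Mfsd2a, Cavin2 and Ehd4, whose signal moved the same way past the test in all mutants, because the factors at the end of the Norrin pathway act on promoter and enhancer DNA. Each is the 250 bases before the gene's start on GRCm38.p6, from RefSeq, read 5′ to 3′ on the gene's strand. Windows were found for 7 of the 9 genes, 9 windows in all. None was found for Plvap and Cavin3, which also moved the same way past the test in all mutants. Capitals mark the letters searched on both strands. TCF/LEF letters were TCAAAG, which reads CTTTGA on the other strand. The CCAAT box reads ATTGG on the other strand. The TATA box was searched as TATAAA, which is TTTATA on the other strand. The GC box was searched as GGGCGG, which is CCGCCC on the other strand. The motifs share no letters with each other in the windows shown. No match says only that these letters are not in this window.
Mfsd2a, chr4:122961189-122961438, minus strand: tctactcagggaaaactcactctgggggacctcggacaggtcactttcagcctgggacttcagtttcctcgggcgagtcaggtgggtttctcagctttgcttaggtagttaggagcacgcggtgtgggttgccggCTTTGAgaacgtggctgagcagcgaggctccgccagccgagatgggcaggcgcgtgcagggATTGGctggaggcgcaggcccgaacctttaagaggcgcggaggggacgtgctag
Cavin2, chr1:51288876-51289125, plus strand: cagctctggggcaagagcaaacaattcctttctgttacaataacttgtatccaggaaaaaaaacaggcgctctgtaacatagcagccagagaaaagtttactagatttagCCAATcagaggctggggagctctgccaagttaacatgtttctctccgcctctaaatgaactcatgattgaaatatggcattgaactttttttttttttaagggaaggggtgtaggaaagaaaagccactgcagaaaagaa
Ehd4, chr2:120154576-120154825, minus strand: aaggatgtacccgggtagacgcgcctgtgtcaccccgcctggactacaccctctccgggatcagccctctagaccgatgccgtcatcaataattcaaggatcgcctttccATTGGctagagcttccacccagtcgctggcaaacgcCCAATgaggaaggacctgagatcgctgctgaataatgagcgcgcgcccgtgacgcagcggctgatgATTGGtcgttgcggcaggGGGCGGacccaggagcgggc
The Mfsd2a window held 1 TCF/LEF match, CTTTGA, which began 115 bases before the start, and 1 CCAAT box match 54 bases before it. Of the 9 windows only this 1 held TCF/LEF letters, and 1 of 9 is close to the share of all windows. Such letters are in 13.8% of 32851 windows of the same length. The Cavin2 window held 1 CCAAT box match, 140 bases before the start. The Ehd4 window held 3 CCAAT box matches, at 140, 104 and 38 bases before the start, and a GC box match at 20. A CCAAT box is found in 33.8% of all windows, a GC box in 32.7% and a TATA box in 12.4%. A match of letters is a description and not a bound site.

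Cav1, whose protein is the core of the endothelial caveolar coat, changed little. Its signal was 12.07, 12.28 and 12.18 in Fz4-/- arrays, 11.95, 12.07 and 12.15 in Lrp5-/- arrays, and 11.94, 11.69 and 11.80 in Norrin KO arrays, against 11.59, 11.77 and 11.95 (lowest, median and highest) in wild type arrays. The Fz4-/- and Lrp5-/- arrays lay at or above the top of the wild type range, and the Norrin KO arrays lay within it. Cav1 was higher by 0.39 ± 0.12 in Fz4-/- (SE, adjusted p = 0.0373). The differences of 0.27 ± 0.12 in Lrp5-/- (adjusted p = 0.169), 0.02 ± 0.12 in Norrin KO (adjusted p = 0.91) and 0.23 ± 0.09 over the mean of the mutants (adjusted p = 0.0808) did not pass. The call in Fz4-/- was lost when any of the 3 Fz4-/- arrays or wild type 1, 3, 4 or 6 was left out, with an adjusted p of 0.0562 to 0.145.

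Cav2, which joins Cav1 in the coat, went the other way in sign. Its signal was 11.93, 12.21 and 12.03 in Fz4-/- arrays, 12.01, 12.06 and 12.16 in Lrp5-/- arrays, and 11.64, 11.87 and 11.96 in Norrin KO arrays, against 12.03, 12.29 and 12.33 (lowest, median and highest) in wild type arrays. The Norrin KO arrays lay below every wild type array, and the other mutants overlapped the lower end of the wild type range. Cav2 fell by 0.42 ± 0.12 in Norrin KO (SE, adjusted p = 0.0166), while −0.19 ± 0.12 in Fz4-/- (adjusted p = 0.327) and −0.17 ± 0.12 in Lrp5-/- (adjusted p = 0.446) did not pass. Over the mean of the mutants it was lower by −0.26 ± 0.09 on the log2 scale (adjusted p = 0.0446), a call that was lost in 15 of 23 alternatives, among them leaving out any 1 array other than Fz4-/- 2, Norrin KO 3 or wild type 3 (adjusted p of 0.0531 to 0.0966). Without Norrin KO 1, the array with the widest actin gap, the difference in Norrin KO was −0.33 (adjusted p = 0.083). The other Cav2 probe set, 1425955_at, was dim and differed by 0.24 in Norrin KO (adjusted p = 0.505 in the test over probe sets). With the mean of all Cav2 probe sets the Norrin KO difference was −0.09 (adjusted p = 0.704).

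The cavins, which assemble on caveolins to curve the membrane, moved in different directions. Cavin1 (once Ptrf), needed for caveolae to form, was at 11.55, 11.55 and 11.34 in Fz4-/- arrays, 11.32, 11.60 and 11.71 in Lrp5-/- arrays, and 10.76, 11.37 and 11.36 in Norrin KO arrays, against 11.68, 11.83 and 11.95 (lowest, median and highest) in wild type arrays. Norrin KO 1, which also had the widest actin gap (2.92), was the lowest array by a wide margin, and Lrp5-/- 3 reached into the wild type range. Cavin1 was lower by −0.65 ± 0.15 in Norrin KO (SE, adjusted p = 0.00533) and by −0.42 ± 0.11 over the mean of the mutants (adjusted p = 0.0123). Without Norrin KO 1 the Norrin KO difference was −0.45 and still past the test. The differences of −0.34 ± 0.15 in Fz4-/- (adjusted p = 0.151) and −0.27 ± 0.15 in Lrp5-/- (adjusted p = 0.287) did not pass.

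Cavin2 (once Sdpr), a cavin that shapes caveolae in some tissues, fell in all mutants. On the brightest of its probe sets, 1416778_at, the signal was 11.51, 11.46 and 11.72 in Fz4-/- arrays, 11.58, 11.85 and 11.81 in Lrp5-/- arrays, and 11.99, 11.68 and 11.87 in Norrin KO arrays, against 12.49, 12.70 and 12.81 (lowest, median and highest) in wild type arrays. No mutant array reached the wild type range. The differences were −1.11 ± 0.12 in Fz4-/- (SE, adjusted p = 1.25e-05), −0.93 ± 0.12 in Lrp5-/- (adjusted p = 9.69e-05), −0.83 ± 0.12 in Norrin KO (adjusted p = 0.000154) and −0.95 ± 0.09 over the mean of the mutants (adjusted p = 1.58e-06). Both other probe sets fell further over the mean of the mutants, 1416779_at by 1.38 and 1443832_s_at by 1.54 on the log2 scale. The order of the mutants turned with the probe set: Norrin KO was the least reduced on 1416778_at (−0.83) and the most reduced on 1416779_at (−1.59) and 1443832_s_at (−1.91). The actin gap was wider on the Norrin KO arrays (1.05 to 2.92) than on the others, and its part in this order was not tested. With the mean of all probe sets the Norrin KO difference was −1.45. Wild type 5 was low on 1416779_at and 1443832_s_at, at 11.09 and 10.12, and still above every mutant array.

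Cavin3 (once Prkcdbp), the cavin that links caveolae to signalling proteins, rose in all mutants. Its signal was 9.73, 9.60 and 9.85 in Fz4-/- arrays, 9.17, 9.51 and 9.24 in Lrp5-/- arrays, and 10.48, 10.04 and 10.26 in Norrin KO arrays, against 8.18, 8.49 and 8.80 (lowest, median and highest) in wild type arrays. The groups did not overlap at all, and from the top they ran Norrin KO, Fz4-/-, Lrp5-/-, wild type. It was higher by 1.76 ± 0.15 in Norrin KO (SE, adjusted p = 1.4e-06), by 1.23 ± 0.15 in Fz4-/- (adjusted p = 4.94e-05) and by 0.81 ± 0.15 in Lrp5-/- (adjusted p = 0.00239). The neighbours in this order did not differ past the test between Norrin KO and Fz4-/- or between Fz4-/- and Lrp5-/-: Fz4-/- minus Norrin KO was −0.53 (adjusted p = 0.121) and Fz4-/- minus Lrp5-/- was 0.42 (adjusted p = 0.516).

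Ehd4, an ATPase of membrane scission and recycling that can stand in for Ehd2 at the caveolar neck, rose in all mutants. Its signal was 12.77, 12.71 and 12.74 in Fz4-/- arrays, 12.75, 12.76 and 12.67 in Lrp5-/- arrays, and 12.60, 12.68 and 12.66 in Norrin KO arrays, against 11.64, 11.85 and 12.18 (lowest, median and highest) in wild type arrays. The 9 mutant arrays lay between 12.60 and 12.77, and the wild type arrays were all lower. The differences were 0.87 ± 0.12 in Fz4-/- (SE, adjusted p = 0.00014), 0.86 ± 0.12 in Lrp5-/- (adjusted p = 0.000216), 0.78 ± 0.12 in Norrin KO (adjusted p = 0.000298) and 0.83 ± 0.09 over the mean of the mutants (adjusted p = 7.58e-06).

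Ehd2, the ATPase that holds caveolae at the membrane, gave an answer that depended on the probe set. On the brightest, 1435785_at, the signal was 12.55, 12.54 and 12.53 in Fz4-/- arrays, 12.37, 12.55 and 12.49 in Lrp5-/- arrays, and 12.81, 12.93 and 12.89 in Norrin KO arrays, against 12.10, 12.23 and 12.26 (lowest, median and highest) in wild type arrays. Every mutant array was above every wild type array, with Norrin KO arrays on top. Ehd2 was higher on it by 0.66 ± 0.10 in Norrin KO (SE, adjusted p = 0.000165), by 0.33 ± 0.10 in Fz4-/- (adjusted p = 0.0291) and by 0.41 ± 0.07 over the mean of the mutants (adjusted p = 0.000558). The 0.26 ± 0.10 in Lrp5-/- (adjusted p = 0.0993) did not pass. On 1424157_at, which was bright as well, the means were 11.31 in Fz4-/- arrays, 11.17 in Lrp5-/- arrays and 11.25 in Norrin KO arrays, against 11.24 in wild type arrays. That probe set differed by 0.01 over the mean of the mutants (adjusted p = 0.97) and its groups overlapped. With the mean of all Ehd2 probe sets no difference passed, at 0.13 over the mean of the mutants (adjusted p = 0.414) and 0.16 in Norrin KO (adjusted p = 0.455). That mean weighs the dim probe sets 1424158_at, 1427729_at and 1459823_at as much as the bright ones. The call in Fz4-/- was lost without any 1 of the Fz4-/- arrays (adjusted p of 0.0855 to 0.101).

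**Figure D2:**
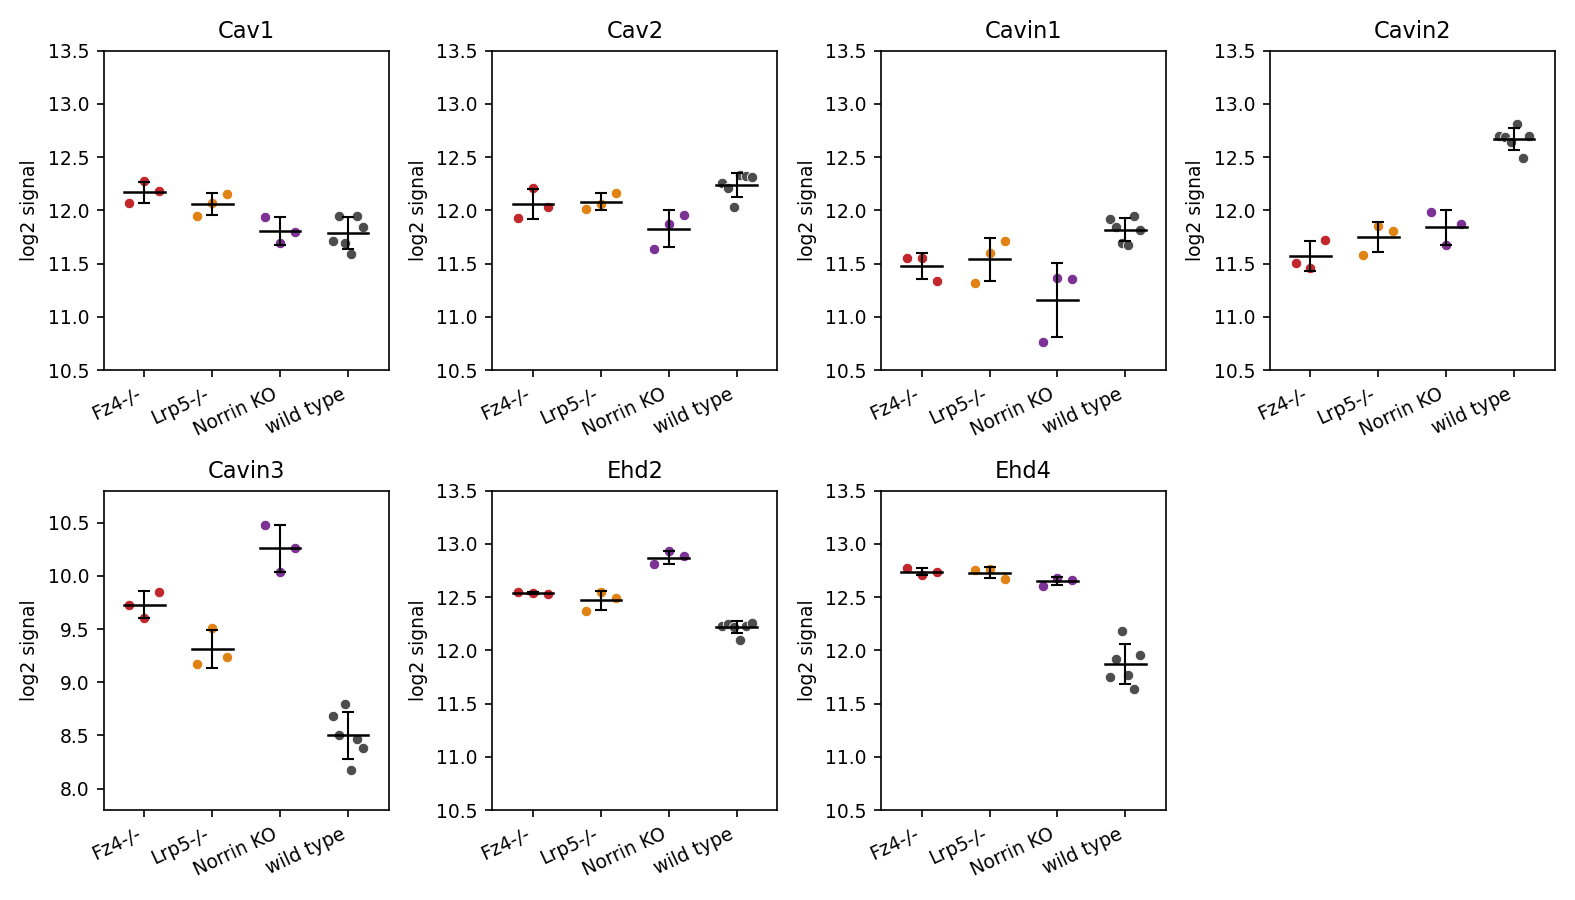
Log2 signal of the caveolar coat and neck genes on each of the 15 arrays, by group, with the group mean and SD as bars (the axis of Cavin3 spans lower values than the others and is equally long). Cavin3 and Ehd4 lie higher in every mutant array than in any wild type array and Cavin2 lies lower, while Cav1, Cav2 and Cavin1 overlap in part.

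**Figure D3:**
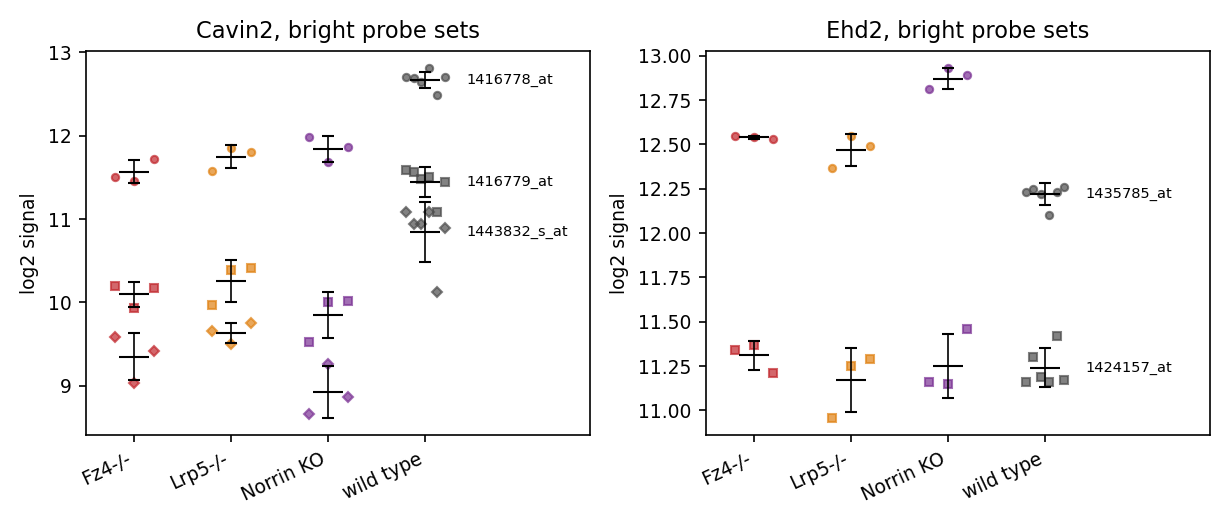
Log2 signal of the bright probe sets of Cavin2 (left) and Ehd2 (right) on each array, by group, with group mean and SD as bars and the probe set named beside the wild type points. All 3 Cavin2 probe sets are lower in every mutant array, and of the Ehd2 probe sets 1435785_at separates the groups and 1424157_at does not.

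Tested one by one over 45037 probe sets, 8 of the 18 passed in Fz4-/-, 7 in Lrp5-/-, 12 in Norrin KO and 9 over the mean of the mutants. In all probe sets 12%, 7.69%, 20.5% and 17.7% passed in the same comparisons. The test over probe sets is stricter, so Cav1 in Fz4-/- had an adjusted p of 0.0567 there, and Cav2 over the mean of the mutants had 0.0663. Of the 18, 6 had a mean below the median of every array: 1 of Cav2, 2 of Cavin1 and 3 of Ehd2. Among these dim ones 2 passed, both in Norrin KO: 1453891_at of Cavin1 (−0.54) and 1459823_at of Ehd2 (0.36).

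Between the mutants, the diaphragm gene and the lipid carrier did not differ past the test and the signals of Cavin3 and Ehd2 did for 1 pair. In Lrp5-/- against Norrin KO arrays 2 of the 9 genes passed, both lower in Lrp5-/-, where 11.9% of all genes passed (2.43% higher and 9.5% lower). Cavin3 was at 9.17 to 9.51 in Lrp5-/- arrays and 10.04 to 10.48 in Norrin KO arrays, a difference of −0.95 ± 0.17 (SE, adjusted p = 0.00581). Ehd2 was at 12.37 to 12.55 in Lrp5-/- arrays and 12.81 to 12.93 in Norrin KO arrays, a difference of −0.40 ± 0.11 (adjusted p = 0.0313). Without the 3 arrays that stood apart, Lrp5-/- 2 is the only Lrp5-/- array left, and the differences were −0.75 and −0.32. With only the arrays of these groups in the fit neither passed (adjusted p of 0.0685 for Cavin3 and 0.197 for Ehd2). In that fit 1.09% of all genes passed. Ehd2 lost its call without Lrp5-/- 1, Lrp5-/- 3, Norrin KO 2 or Norrin KO 3 (adjusted p of 0.064 to 0.118), and on 1424157_at the groups overlapped. The sums of the fibroblast markers and of the Muller glia and astrocyte markers did not overlap between the Lrp5-/- and the Norrin KO arrays. Nor did the actin gap, and the part of these 3 in the differences was not tested. Xist and Eif2s3y overlapped between these groups, with Xist at 4.76 to 12.21 in Lrp5-/- arrays and 4.12 to 4.98 in Norrin KO arrays.

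In Fz4-/- against Lrp5-/- arrays 0 of the 9 genes passed limma's adjusted test, where 0.225% of all genes did, and 1 had an unadjusted p under 0.05. In Fz4-/- against Norrin KO arrays 0 passed, where 2.33% of all genes did, and 3 had an unadjusted p under 0.05. These were Cav1, higher in Fz4-/- by 0.36 (adjusted p = 0.172), and Cavin3 and Ehd2, lower by −0.53 (adjusted p = 0.121) and −0.33 (adjusted p = 0.122). Xist did not overlap between these groups, at 11.42 to 11.88 in Fz4-/- arrays and 4.12 to 4.98 in Norrin KO arrays. Nor did Eif2s3y, the actin gap or the sums of the fibroblast and of the red blood cell markers. The part of these in the differences was not tested. A p that misses the threshold does not show that the mutants were alike. Arrays did not overlap for 2, 4 and 5 of the 9 genes in Fz4-/- against Lrp5-/-, Fz4-/- against Norrin KO and Lrp5-/- against Norrin KO. That held for 16.5%, 24.6% and 30.8% of all genes.

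**Figure D4:**
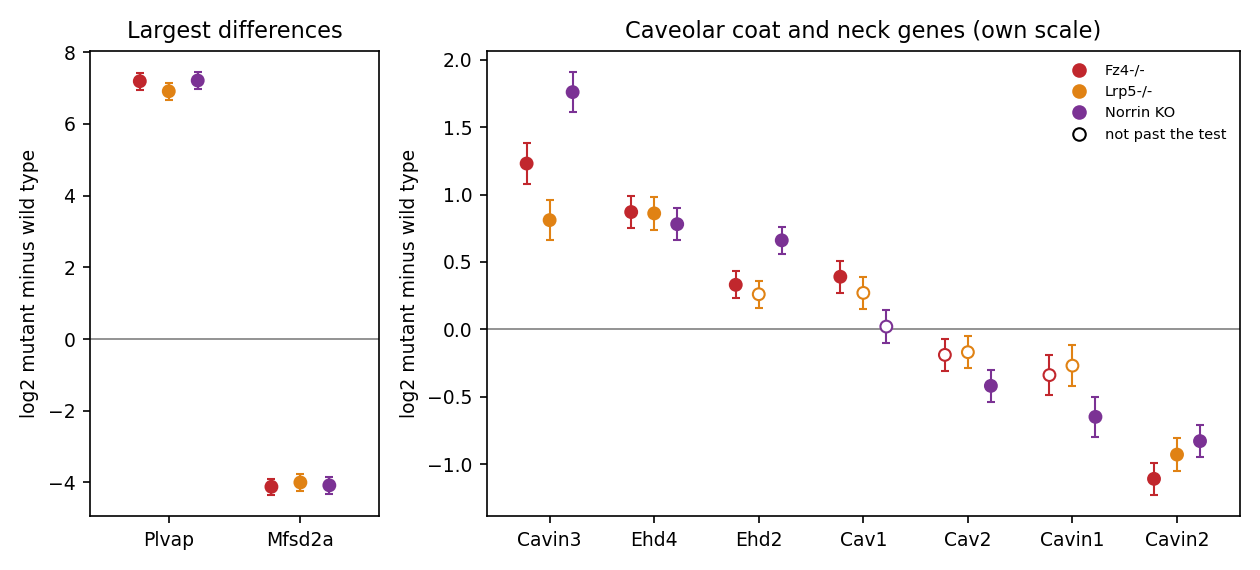
Log2 difference of each mutant from wild type for the 9 genes, with the SE of the fit as bars; open points did not pass the test. Plvap and Mfsd2a have an axis of their own from −5 to 8, and the caveolar genes run from Cavin3 (0.81 to 1.76) through Ehd4, Ehd2, Cav1, Cav2 and Cavin1 to Cavin2 (−1.11 to −0.83).

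The genes whose pattern over the 15 arrays was nearest to Plvap were Col15a1, Gpihbp1, Btnl9, Aqp1 and Esm1. Likeness was the root mean square difference, on the log2 scale, after the wild type mean of each gene was subtracted, and it was 0.48, 0.53, 0.55, 0.72 and 0.72 for these genes in turn. Their own differences over the mean of the mutants were 6.93, 7.01, 7.0, 6.55 and 6.82, against 7.10 for Plvap. For Mfsd2a the nearest were Pllp (0.44), Stra6 (0.50), Edn3 (0.51), Lrp8 (0.52) and Cutal (0.52). They differed by −4.14, −4.13, −3.71, −4.12 and −4.06 over the mean of the mutants. The measure weighs the step between mutant and wild type arrays most, so it picks genes with a step of like size.

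The other machinery of caveolae was described with a list of neck and coat genes, of which 14 of 15 were measured. Over the mean of the mutants 3 were higher and 4 lower, where 14% of all genes were higher and 9.91% lower. The median difference was 0.06, where the median of all genes was −0.01. By mutant it was 2 higher and 3 lower in Fz4-/- (10.7% and 6.08% of all genes), 2 and 4 in Lrp5-/- (5.63% and 7.27%), and 3 and 4 in Norrin KO (16.7% and 9.13%). Ehd1, an ATPase of endocytic recycling, averaged 11.13 ± 0.20 in Fz4-/- arrays, 10.93 ± 0.11 in Lrp5-/- arrays and 11.13 ± 0.45 in Norrin KO arrays (SD, n = 3 each), against 10.17 ± 0.26 in wild type arrays (SD, n = 6). It was higher by 0.89 (adjusted p = 0.00037) with no overlap. Flot2, a flotillin of membrane microdomains, was higher by 0.80 (adjusted p = 0.0164) and Ehd3, another recycling ATPase, by 0.43 (adjusted p = 0.0295). By mutant, both passed in Norrin KO alone, Flot2 at 1.05 and Ehd3 at 0.93. Flot2 was at 0.87 (adjusted p = 0.0609) in Fz4-/- and 0.48 (adjusted p = 0.371) in Lrp5-/-, and Ehd3 at 0.31 (adjusted p = 0.27) and 0.04 (adjusted p = 0.948). Nos3, the endothelial nitric oxide synthase that binds caveolin-1, was at 10.24 ± 0.24 in Fz4-/- arrays, 10.16 ± 0.21 in Lrp5-/- arrays and 9.88 ± 0.40 in Norrin KO arrays, against 10.90 ± 0.07 in wild type arrays. It was lower by −0.81 (adjusted p = 0.000187). Nostrin, an adaptor that binds this enzyme, was lower by −1.08 (adjusted p = 0.000495), and Dnm3, a dynamin, by −0.84 (adjusted p = 0.00032).

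Of receptors that carry cargo across or into endothelium, 14 of 15 were measured. Over the mean of the mutants 3 of these 14 were higher and 7 lower, where 14% of all genes were higher and 9.91% lower. Their median was −0.66, where all genes had −0.01. The counts were 2 higher and 7 lower in Fz4-/- (10.7% and 6.08% of all genes), 1 and 6 in Lrp5-/- (5.63% and 7.27%), and 3 and 7 in Norrin KO (16.7% and 9.13%). Lrp8, a receptor for apolipoprotein E, averaged 7.85 ± 0.42 in Fz4-/- arrays, 7.06 ± 0.32 in Lrp5-/- arrays and 7.77 ± 0.37 in Norrin KO arrays (SD, n = 3 each), against 11.68 ± 0.16 in wild type arrays (SD, n = 6). It fell by 4.12 (adjusted p = 9.84e-11). Bsg, the chaperone basigin of carriers of lactate, was at 10.90 ± 0.21 in Fz4-/- arrays, 11.11 ± 0.05 in Lrp5-/- arrays and 10.24 ± 0.48 in Norrin KO arrays, against 13.45 ± 0.07 in wild type arrays, lower by −2.70 (adjusted p = 9.62e-10). Cd320, the receptor for transcobalamin, was lower by −2.38 (adjusted p = 9.05e-09). Cd36, a scavenger receptor for fatty acids that macrophages express too, was higher by 1.45 (adjusted p = 0.000667), beside the higher macrophage markers given above, and their part in it was not tested. Lrp1, a receptor for lipoproteins, was higher by 0.65 (adjusted p = 0.00105) and Insr, the insulin receptor, by 0.54 (adjusted p = 0.00127). By mutant, Lrp1 passed in Norrin KO alone and Insr did not pass in Lrp5-/- (0.36, adjusted p = 0.112).

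Of the clathrin coat genes, 17 of 18 were measured, and the count called either way over the mean of the mutants, 5 of 17, was close to the share of all genes (23.9%). By limma's adjusted test 0 were higher and 5 lower, where 14% of all genes were higher and 9.91% lower, and 0 and 7 had an unadjusted p under 0.05. The median was −0.09, where all genes had −0.01. Adjusted counts were 0 higher and 2 lower in Fz4-/- (10.7% and 6.08% of all genes), 0 and 4 in Lrp5-/- (5.63% and 7.27%), and 1 and 4 in Norrin KO (16.7% and 9.13%). In Fz4-/- 1 and 7 had an unadjusted p under 0.05, and in Lrp5-/- 0 and 6. The largest were Itsn1, a scaffold of endocytic pits, at −0.65 (adjusted p = 0.000829), Hip1, which links clathrin to actin, at −0.59 (adjusted p = 0.00484), and Epn2, an epsin that bends membrane, at −0.48 (adjusted p = 0.00211). By mutant, Itsn1 passed in all of them, Hip1 in Norrin KO alone, and Epn2 in Lrp5-/- and Norrin KO.

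All 18 genes of vesicle docking and fusion were measured, and the count called over the mean of the mutants, 2 higher and 2 lower, was close to the share of all genes (23.9%, with 14% higher and 9.91% lower). The median was −0.08. The counts were 1 and 1 in Fz4-/- (10.7% and 6.08% of all genes), 0 and 2 in Lrp5-/- (5.63% and 7.27%), and 2 and 2 in Norrin KO (16.7% and 9.13%), where Lrp5-/- had 1 higher at an unadjusted p under 0.05. Rab4a, a GTPase of rapid recycling, averaged 7.63 ± 0.24 in Fz4-/- arrays, 6.21 ± 0.42 in Lrp5-/- arrays and 8.10 ± 0.61 in Norrin KO arrays (SD, n = 3 each), against 8.73 ± 0.26 in wild type arrays (SD, n = 6). It was lower by −1.42 (adjusted p = 5.03e-05). Stxbp3, a partner of syntaxin, was lower by −0.37 (adjusted p = 0.0469). Napa, the adaptor that helps take SNARE complexes apart, was higher by 0.67 (adjusted p = 0.00955) and Exoc4, an exocyst subunit, by 0.57 (adjusted p = 0.0143). None of these 4 passed in every mutant: Rab4a passed in Fz4-/- and Lrp5-/-, Stxbp3 in Lrp5-/-, Napa in Fz4-/- and Exoc4 in Norrin KO.

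Beside Mfsd2a, 15 of 16 other genes of fatty acid and lysolipid handling were measured, of which 4 were higher and 1 lower over the mean of the mutants, where 14% of all genes were higher and 9.91% lower. The median was 0.17. The counts were 5 higher and 1 lower in Fz4-/- (10.7% and 6.08% of all genes), 2 and 1 in Lrp5-/- (5.63% and 7.27%), and 4 and 1 in Norrin KO (16.7% and 9.13%). Spns2, which exports sphingosine-1-phosphate and belongs to the same broad superfamily of carriers as Mfsd2a, averaged 9.62 ± 0.05 in Fz4-/- arrays, 9.78 ± 0.29 in Lrp5-/- arrays and 10.13 ± 0.21 in Norrin KO arrays (SD, n = 3 each), against 8.61 ± 0.50 in wild type arrays (SD, n = 6). It was higher by 1.23 (adjusted p = 0.000161) with no overlap. Slc27a3, of the fatty acid transport protein family, was higher by 1.17 (adjusted p = 0.000297) and Fabp5, a fatty acid binding protein, by 0.64 (adjusted p = 0.00067). Lpcat3, which loads fatty acids onto lysophospholipids, was lower by −0.91 (adjusted p = 0.000788). In Lrp5-/- neither Slc27a3 (0.57, adjusted p = 0.168) nor Fabp5 (0.29, adjusted p = 0.264) passed.

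**Figure D5:**
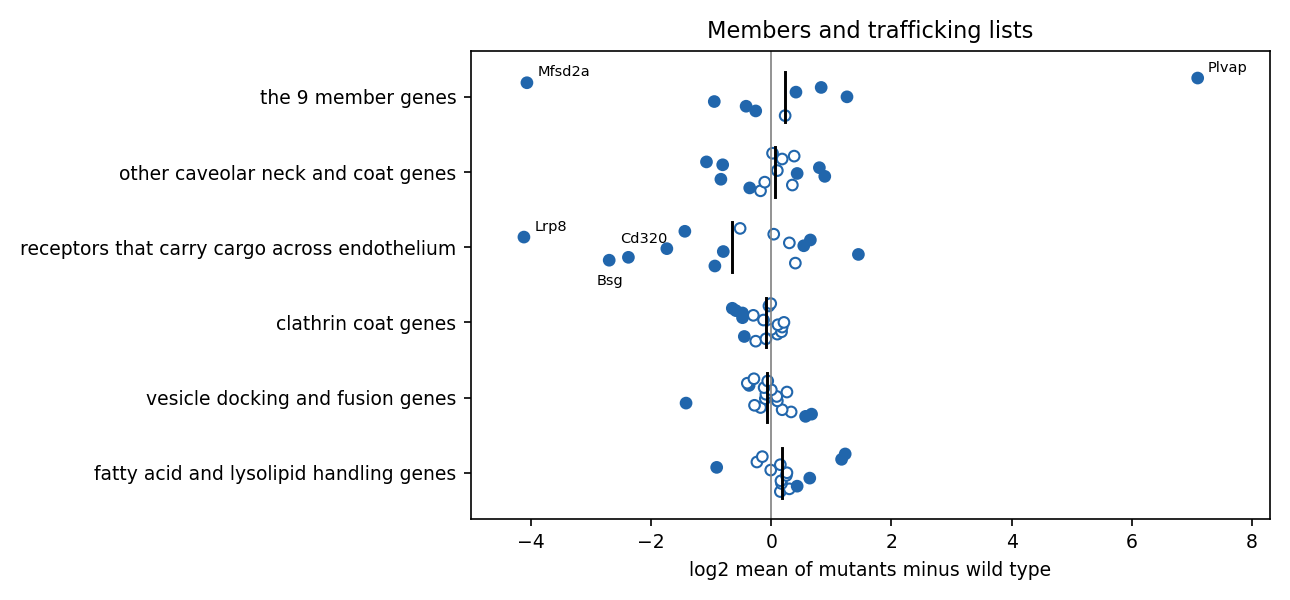
Log2 difference between the mean of the mutants and wild type for each gene of the named set (top row) and of the lists of vesicle and lipid genes; filled points passed the test, open points did not, and the vertical bar is the median of the row. Plvap and Mfsd2a stand at 7.10 and −4.07, and Lrp8, Bsg and Cd320 are the lowest of the receptor list.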

How the data were processed

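For 15 Affymetrix arrays the authors deposited a log2 signal for each of 45101 probe sets. The submitters' processing notes name RMA (background correction, quantile normalization and probe summary), with no version or settings. Depth has no meaning for arrays, and their number limits the precision. Probe sets were named from the supplied platform annotation: 34945 had 1 symbol, 932 several, 9160 none, and 64 were controls. The brightest probe set over all arrays stood for a gene (18193 genes, 9010 with more than 1). No filter was applied. Groups came from the labels. limma 3.58.1 under R 4.3.3 (lmFit, contrasts.fit, eBayes) fitted 4 group means, with p-values adjusted over all genes and, apart, over 45037 probe sets. The fit was tested on simulated data. Replicate numbers were not used to pair the arrays. Deviations from the group means correlated at over 0.1 in 5 of 18 same-numbered pairs (−0.238 to 0.381). Pairs with different numbers were not compared, so this cannot decide whether the numbers pair the arrays. Named were all 9 genes with every probe set, the 3 largest changes each way per list over the mean of the mutants, the 5 genes nearest to Plvap and to Mfsd2a, the first marker of a list and the targeted genes. The genes and lists were chosen with earlier results of these data known. Alternatives were 9 other settings and leaving out each of 15 arrays.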

Additional observations from a re-analysis of the deposited data

Results flagged for a closer look

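Among the 18 probe sets, an array of the 6 wild type arrays lay far from the others in 3, where chance gives about 1 in 20. Wild type 5 was low on Cavin2 probe sets 1416779_at (11.09) and 1443832_s_at (10.12) and was also the lowest, though not by such a gap, on 1416778_at (12.49). Wild type 4 was low on Ehd2 probe set 1435785_at (12.10). Between mutants, Cavin3 (−0.95) and Ehd2 (−0.40) were lower in Lrp5-/- than in Norrin KO arrays by the test of that difference.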

How the results depend on the processing

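Plvap, Mfsd2a, Cavin2 and Ehd4 kept their calls against wild type in every mutant under every alternative run, and Cavin3 did except in Lrp5-/- with the replicate block (0.65, adjusted p = 0.0533). Against wild type 24 of 36 differences kept their sign and their side of the threshold under all alternatives. Leaving out 1 array gave 5 to 7 genes past the test in Fz4-/-, 5 in Lrp5-/-, 7 to 8 in Norrin KO, 7 to 8 over the mean of the mutants, 0 in both comparisons of Fz4-/- with another mutant and 1 to 2 in Lrp5-/- against Norrin KO. That last count was 1 without Lrp5-/- 1, Lrp5-/- 3, Norrin KO 2 or Norrin KO 3, 1 with the mean of all probe sets or the replicate block, and 0 with only the groups of the contrast. Without the 3 arrays that stood apart only 1 Lrp5-/- array is left, so no count is given for that fit. The count for Fz4-/- against Norrin KO was 2 with quantile normalization again and 1 with trend and robust eBayes. Differences that changed sign were near 0 and uncalled: Cav2 in Fz4-/- was 0.03 with the mean of all probe sets; Cav1 in Norrin KO was −0.02 without the 3 arrays, and with 1 array left out it ran between −0.04 (without Norrin KO 1) and 0.08, with −0.02 without wild type 4; Ehd2 in Fz4-/- minus Lrp5-/- was −0.06 with the mean of all probe sets and −0.01 without the 3 arrays; and Plvap in Fz4-/- minus Norrin KO ran between −0.09 and 0.02 (without Norrin KO 1). The mean of the mutants has no alternative with only the groups of the contrast. The causes were not tested. Whether the replicate numbers pair the arrays is not known, so the replicate block is given as a check. Only wild type has replicates 4, 5 and 6, so each of these arrays takes a block term of its own. The block fit thus sets the mutants against wild type 1, 2 and 3 only. With it 10.6% of all genes passed in Fz4-/-, 7.57% in Lrp5-/- and 15.3% in Norrin KO. Cav1 and Ehd2 in Fz4-/-, Cav2 in Norrin KO, Cav2 and Cavin1 over the mean of the mutants and Ehd2 in Lrp5-/- against Norrin KO (adjusted p = 0.0749) lost their calls. Against wild type, pairing and the fewer wild type arrays cannot be told apart in this fit. Low signal near background limits Plvap in wild type and the 6 dim probe sets.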

Other observations

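The difference between the 2 caveolin signals shifted in all mutants, though not by a move of both genes in each. By mutant, Cav1 passed limma's adjusted test in Fz4-/- alone and Cav2 in Norrin KO alone, where Cav1 differed by 0.02. Cav2 and Cav1 lie next to each other on chromosome 6, with 0 genes between them in the gene table. The signal of Cav1 minus that of Cav2 on the same array was 0.14, 0.06 and 0.15 in Fz4-/- arrays, −0.06, 0.01 and −0.01 in Lrp5-/- arrays, and 0.30, −0.19 and −0.16 in Norrin KO arrays, against −0.75 to −0.25 in wild type arrays. The level of such a difference between probe sets has no meaning of its own, and only its shift between arrays does. All 9 mutant arrays lay above all 6 wild type arrays, although Cav1 and Cav2 taken singly overlapped between them. The nearest arrays were Norrin KO 2 at −0.19 and wild type 2 at −0.25.

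Cavin3 minus Cavin2 shifted in the same manner and further, at −2.57 to −1.50 in mutant arrays and −4.63 to −3.84 in wild type arrays. This separation was fixed beforehand, as every mutant array was above all wild type arrays for Cavin3 and below them for Cavin2. Both pairs were picked after the values were seen and are given as values with no test. How many other gene pairs separate in this way was not counted.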
